A study of Rattus norvegicus with 7 samples.

Results

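Adipocytes of white fat are marked by a small set of abundant transcripts, and 7 such genes were followed across all adrenal libraries of the series: *Adipoq*, *Retn*, *Cfd*, *Plin1*, *Cidec*, *Fabp4* and *Tusc5*. They are 7 of the 32754 Ensembl genes in the counts, and all 7 are among the 13892 genes that reached at least 10 counts in every library and were tested. The genes were picked because they appear in the study's own list of genes that changed between chronic shock and control adrenals. Their values in that comparison are therefore given here as a description, and counts of calls in it are printed as background and support nothing. The 2 other comparisons each share libraries with it.

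White adipocytes store triglyceride in a single large lipid droplet and release fatty acids from it when catecholamines or other lipolytic signals reach the cell. They also secrete hormones and enzymes, the adipokines, that act on insulin responses, feeding and immunity. The adrenal gland lies embedded in perirenal fat, and its cortical cells keep lipid droplets of their own, which hold mainly cholesteryl esters for steroid synthesis.

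RNA was sequenced from adrenal glands of male Sprague-Dawley rats that were left as controls, exposed to chronic variable stress (CVS) or exposed to chronic shock (CS). Both stress protocols lasted 3 weeks, from postnatal day 28 to 49, and animals were killed about 24 hours later, on postnatal day 50 or 51, within a 4-hour window of the light phase. Control rats were housed 3 per cage. CVS combined many stressors given in changing order, among them predator cues, restraint, cold, forced swimming, food and water deprivation and some shock. CS rats lived alone on the metal grid through which unpredictable foot shocks were delivered, so that shock, grid and single housing cannot be told apart. The series holds 7 libraries, of which 3 are control, 2 CVS and 2 CS. Every library was made from the pooled RNA of 8 to 9 animals, so that the spread between libraries is a spread between pools.

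Total counts per library ranged from 20095746 to 32242123. The tissue label was checked on the adrenal markers that could be looked up. *Cyp11b2* (aldosterone synthase) lay between 1679 and 2594 CPM (counts scaled to a common library total) in the 7 libraries, *Scarb1*, which takes up cholesteryl ester from lipoproteins, between 2391 and 3982 CPM, and *Chgb*, a granule protein of chromaffin cells, between 1049 and 1566 CPM. The cortex gene *Nr0b1* and the noradrenaline transporter *Slc6a2* of the medulla were far lower. Their highest group means, both in control, were 31.8 CPM for *Nr0b1* and 36.9 CPM for *Slc6a2*. Their levels overlapped those of the adipocyte gene *Fabp4*. The 7 white adipocyte genes were also detected in every library, with 43 counts (*Retn*, control 2) to 943 counts (*Fabp4*, CS 2) per gene. The labels also give each library a code, whose prefix is DM6 for control 1, CVS 1 and CS 1, DM8 for the libraries numbered 2 of control and CVS, and DM10 for control 3 together with CS 2. What these prefixes mark is not stated. In bulk RNA of this kind, a smaller or larger number of adipocytes and a lower or higher RNA content per adipocyte cannot be told apart.

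The 7 genes together had a summed level of 42.5, 35.5 and 54.8 normalized CPM in control libraries 1 to 3, of 66.8 and 64.3 in CVS 1 and 2, and of 96.5 and 111 in CS 1 and 2 (CPM here and below are scaled by edgeR's TMM factors over all 7 libraries). The 3 groups did not overlap. The group means were 44.3 ± 9.76 (SD, n = 3) in control, 65.6 ± 1.74 (SD, n = 2) in CVS and 104 ± 10.05 (SD, n = 2) in CS. Relative to the control mean, the sum was 1.51 and 1.45 times as high in the CVS libraries and 2.18 and 2.499 times as high in the CS libraries, while the control libraries themselves ran from 0.802 to 1.24. In 6 of the 7 genes every control library lay below every CVS library and every CVS library below every CS library, an arrangement found in 1.08% of all genes tested. The exception was *Cfd*. Since CS libraries above control libraries is what the genes were picked for, only the place of the CVS libraries in this order is not fixed by that comparison. The share over all genes does not allow for this. All CS libraries lay above all control libraries in 1797 genes, of which 150 had the full order.

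**Figure D1:**
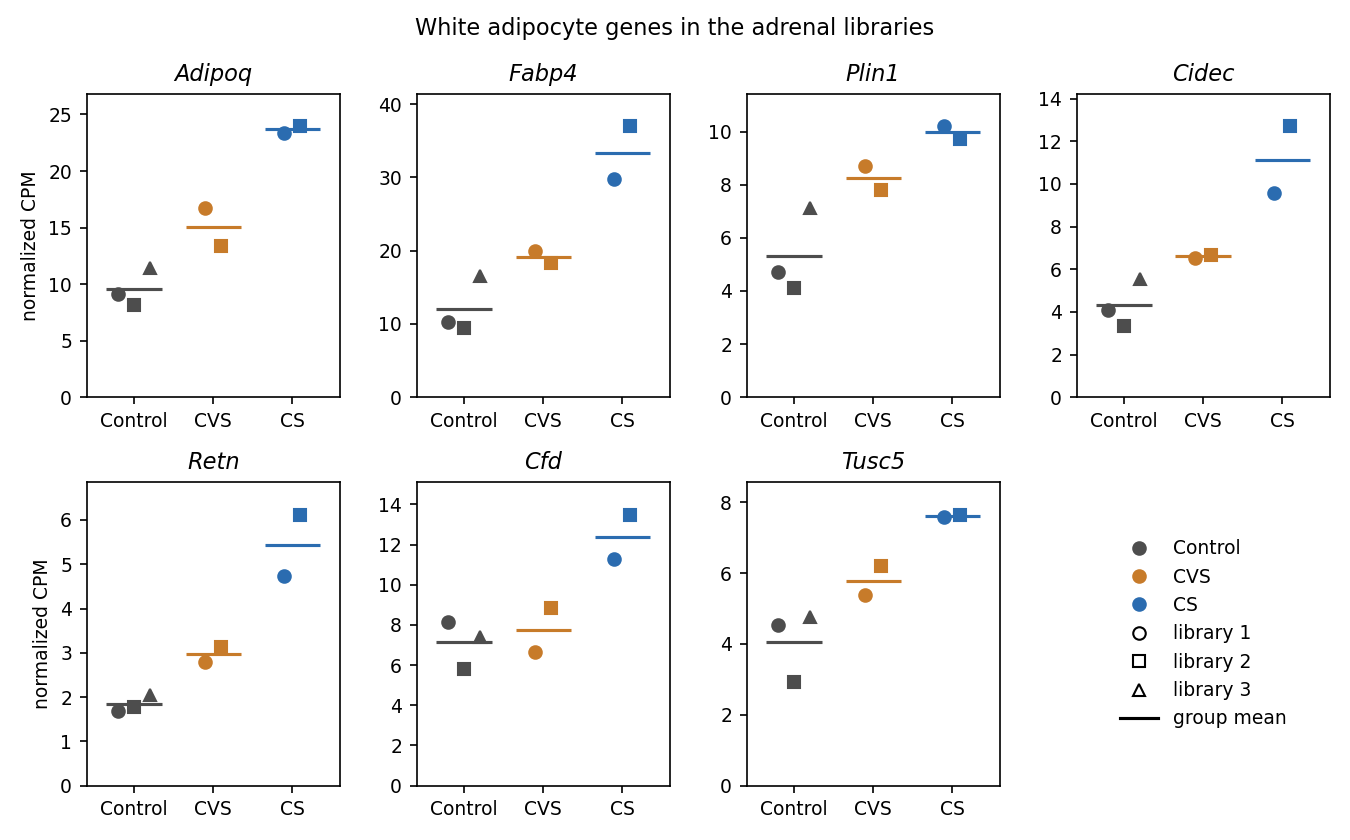
Normalized CPM of each of the 7 white adipocyte genes in each library, 1 panel per gene with its own axis from 0 and 1 point per library; the short bars are the group means. *Adipoq* runs from 8.17 to 11.4 in control, 13.4 to 16.8 in CVS and 23.4 to 23.98 in CS, while for *Cfd* the CVS points are 6.67, inside the control range of 5.83 to 8.15, and 8.82, above it.

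Of the secreted products, *Adipoq* (ENSRNOG00000001821) encodes adiponectin, an adipocyte hormone that raises insulin sensitivity. It stood at 9.16, 8.17 and 11.4 CPM in control 1 to 3, at 16.8 and 13.4 CPM in CVS 1 and 2, and at 23.4 and 23.98 CPM in CS 1 and 2. No libraries of different groups overlapped, and the CS libraries were close to each other. The log2 fold change in CS over control was 1.31 ± 0.15 (standard error), or 2.47-fold.

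*Retn* (ENSRNOG00000001001) encodes resistin, which in rodents is made by adipocytes and opposes insulin action. It had 1.69, 1.77 and 2.06 CPM in control, 2.80 and 3.13 CPM in CVS and 4.74 and 6.12 CPM in CS. The groups were again separate, and control libraries lay close together. These values rest on few counts. The 43 counts of control 2 equal 1.75 CPM of that library before TMM scaling, with an exact 95% binomial interval of 1.27 to 2.36. The 156 counts of CS 2 equal 5.85 CPM with an interval of 4.96 to 6.84. These intervals cover counting error only. The log2 fold change in CS, 1.56 ± 0.21 (2.96-fold), was the highest of the 7 genes.

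*Cfd* (ENSRNOG00000033564) encodes adipsin, or complement factor D, the serine protease that starts the alternative complement pathway and that fat secretes in large amounts. Its levels were 8.15, 5.83 and 7.41 CPM in control, 6.67 and 8.82 CPM in CVS and 11.3 and 13.5 CPM in CS. CVS 1 lay within the control range and CVS 2 above it, and both CS libraries stood higher than every other library. The log2 fold change in CS was 0.79 ± 0.18 (1.73-fold), the lowest of the 7.

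The stretches upstream of these genes are shown because *Adipoq* and *Retn* were above all control libraries in the CVS as well as the CS libraries, whereas *Cfd* had a CVS library within the control range. Each run holds the 250 bases before the annotated gene start, read 5′ to 3′ on the gene's strand (RefSeq, build GRCr8, which is not the build used for counting). The positions are chr11:91240170-91240419 (minus strand) for *Adipoq*, chr12:6508524-6508773 (plus strand) for *Retn* and chr7:10465497-10465746 (minus strand) for *Cfd*. Capitals mark matches to the 8 motifs named below.
Adipoq: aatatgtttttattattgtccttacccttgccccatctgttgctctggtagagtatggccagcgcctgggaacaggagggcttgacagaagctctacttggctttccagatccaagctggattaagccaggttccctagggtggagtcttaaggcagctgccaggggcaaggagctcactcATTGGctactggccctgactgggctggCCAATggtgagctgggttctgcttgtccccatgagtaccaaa
Retn: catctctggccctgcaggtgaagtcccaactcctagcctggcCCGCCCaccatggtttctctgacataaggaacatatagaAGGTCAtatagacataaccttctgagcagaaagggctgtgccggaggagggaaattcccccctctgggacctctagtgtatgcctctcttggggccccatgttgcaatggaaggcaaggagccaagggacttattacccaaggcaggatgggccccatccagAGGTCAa
Cfd: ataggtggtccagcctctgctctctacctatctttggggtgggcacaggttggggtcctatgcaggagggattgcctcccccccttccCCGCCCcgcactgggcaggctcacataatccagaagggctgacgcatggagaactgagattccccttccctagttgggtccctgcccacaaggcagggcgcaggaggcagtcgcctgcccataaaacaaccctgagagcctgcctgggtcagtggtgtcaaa

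Both strands were searched for AGGTCA (nuclear receptor half-site), the DR1 element (a direct repeat of that half-site with 1 base between, the form bound by PPARG with RXR), TTGCNNAA (bound by C/EBP factors), CCAAT (bound by NF-Y), TATAAA (the TATA box), CACGTG (an E-box), AGAACA (glucocorticoid receptor half-site) and GGGCGG (bound by Sp1). A match to DR1 can contain the half-site. Sequence was found for 5 of the 7 genes, the other 2 being *Fabp4* and *Tusc5*. *Adipoq* held 2 CCAAT matches and *Plin1* 1, against a share of 34.0% of 33469 promoters of this length with at least 1 match. *Retn* held 2 AGGTCA matches (14.1% of promoters), one of them ending next to the gene start, and *Retn* and *Cfd* held 1 GGGCGG match each (30.5%). TTGCNNAA was found in *Plin1* and *Cidec* (9.22% of promoters). None of the 5 windows held the DR1 element (0.368%), TATAAA (12.9%), CACGTG (5.59%) or AGAACA (17.5%). No motif was shared by all 5 genes.

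Among the proteins of the lipid droplet, *Plin1* (ENSRNOG00000015086) encodes perilipin 1, which coats the droplet and controls the access of lipases to it. It had 4.71, 4.11 and 7.11 CPM in control, 8.71 and 7.81 CPM in CVS and 10.2 and 9.73 CPM in CS. Control 3 stood well above the other control libraries, close to CVS 2, and the distance from CVS to CS was small. The log2 fold change in CS was 0.92 ± 0.23 (1.89-fold).

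*Cidec* (ENSRNOG00000009153) encodes a protein that sits where droplets touch and lets them merge into larger ones. Its levels were 4.09, 3.33 and 5.52 CPM in control, 6.54 and 6.65 CPM in CVS and 9.57 and 12.7 CPM in CS. The CVS libraries were nearly equal, and lay above control 3 and below CS 1. In CS it was 1.37 ± 0.23 higher on the log2 scale (2.58-fold).

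Of the genes that handle fatty acids and glucose, *Fabp4* (ENSRNOG00000010805) encodes the fatty acid carrier of the adipocyte cytosol, which macrophages also make. It stood at 10.2, 9.40 and 16.5 CPM in control, at 19.9 and 18.4 CPM in CVS and at 29.7 and 37.0 CPM in CS. Control 3 was the control library nearest to the CVS libraries, as for *Plin1*. CS was 1.47 ± 0.23 above control on the log2 scale (2.78-fold).

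*Tusc5* (ENSRNOG00000022239), named *Trarg1* in RefSeq, encodes a membrane protein that takes part in the insulin-dependent trafficking of the glucose transporter GLUT4. It had 4.54, 2.92 and 4.75 CPM in control, 5.38 and 6.20 CPM in CVS and 7.59 and 7.65 CPM in CS. The CS libraries were almost the same, and CVS 1 was only a little above control 3. On the log2 scale CS was 0.90 ± 0.22 above control (1.87-fold).

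The median log2 fold change of the 7 genes in CS over control was 1.31, against 0.0053 over all genes tested. All CS libraries lay above all control libraries in 7 of 7 genes, as in 12.9% of all genes. With edgeR's quasi-likelihood test 2 of the 7 (*Adipoq* and *Retn*) were past an adjusted p of 0.05, as were 0.209% of all genes, 0.151% upwards. That count moved with the libraries used, from 0 without CS 2 or without any 1 of the 3 control libraries to 4 without CS 1. With the replicate number as a block it was 6 (*Cfd* being the exception, 3.01% of all genes, 1.73% upwards), with the code prefix as a block in all 7 libraries 7 (4.18%, 2.37% upwards), and with DESeq2's Wald test 7 (1.37%, 0.713% upwards). These counts are background only, because this comparison chose the genes. Within the library codes, CS 1 over control 1 gave log2 ratios of 0.47 to 1.54 and CS 2 over control 3 gave 0.45 to 1.57, with 7 of 7 genes higher in each.

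CVS over control shares its control libraries with the comparison that chose the genes, and the genes were picked with earlier results of the CVS libraries known, so its tests are not independent of the choice. All 7 genes had a positive log2 fold change, with a median of 0.65 against 0.0016 over all genes tested, of which 50.4% were positive. All CVS libraries lay above all control libraries in 6 of 7 genes, compared with 11.3% of all genes. However, 0 of the 7 passed an adjusted p of 0.05 in edgeR's quasi-likelihood test (p-values adjusted by Benjamini-Hochberg), and 0.0936% of all genes did, 0.0072% upwards. At an unadjusted p of 0.05, 5 of the 7 passed (*Adipoq*, *Fabp4*, *Plin1*, *Cidec* and *Retn*), as did 6.45% of all genes. DESeq2's Wald test also called 0 of the 7 (0.893% of all genes, 0.353% upwards), and gave *Retn* no adjusted p.

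The CVS differences of 5 of the 7 genes lay between 0.62 and 0.69 on the log2 scale. *Adipoq* was 0.66 higher (95% interval 0.26 to 1.06, adjusted p = 0.365, edgeR's quasi-likelihood test). *Retn* was 0.69 higher (0.17 to 1.21, adjusted p = 0.580, same test) and *Fabp4* 0.68 higher (0.16 to 1.19, adjusted p = 0.582). For the droplet proteins the differences were 0.65 for *Plin1* (0.11 to 1.18, adjusted p = 0.654) and 0.62 for *Cidec* (0.10 to 1.13, adjusted p = 0.655). The intervals of the other two included 0. *Tusc5* was at 0.50 (-0.038 to 1.04, adjusted p = 0.796) and *Cfd* at 0.11 (-0.35 to 0.56, adjusted p = 0.993).

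The replicate numbers of the labels were treated as pairing the libraries, because same-numbered libraries deviated from their group means together. Only same-numbered libraries were checked for this, and the codes place CS 2 with control 3 and not with control 2 or CVS 2. For control and CVS the numbers and the codes pair the same libraries. With the replicate number as a block, which leaves 1 residual degree of freedom and gives control 3 no partner, 5 of the 7 genes were called higher in CVS. They were *Adipoq*, *Fabp4*, *Plin1*, *Cidec* and *Tusc5*. In that fit 5.88% of all genes were called, 2.64% upwards. Its p-values rest on a spread pooled over all genes. They do not measure how far the pools of a group differ in a single gene. The blocked log2 fold changes were 0.80 for *Adipoq* (adjusted p = 6.7e-07, edgeR), 0.97 for *Fabp4* (adjusted p = 7.26e-12), 0.90 for *Plin1* (adjusted p = 1.73e-05), 0.82 for *Cidec* (adjusted p = 0.000828) and 0.61 for *Tusc5* (adjusted p = 0.0353). The code prefix as a block in a fit of all 7 libraries leaves 2 residual degrees of freedom. There 4 of the 7 were called higher (*Adipoq*, *Fabp4*, *Plin1* and *Cidec*), where 1.85% of all genes were called, 0.813% upwards. Within the codes, CVS 2 over control 2 gave log2 ratios of 0.60 (*Cfd*) to 1.09 (*Tusc5*) and was higher in 7 of 7. CVS 1 over control 1 gave -0.29 (*Cfd*) to 0.97 (*Fabp4*) and was higher in 6 of 7.

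CS over CVS shares its CS libraries with the comparison that chose the genes. All CS libraries lay above all CVS libraries in 7 of 7 genes, as in 20.5% of all genes, and the median log2 fold change was 0.68 against 0.0023 over all genes. By edgeR's quasi-likelihood test 0 of the 7 passed the adjusted p of 0.1 used for this comparison, and neither did any other gene (0.0%). At an unadjusted p of 0.05, 5 of the 7 passed (*Adipoq*, *Fabp4*, *Cidec*, *Retn* and *Cfd*) and 7.34% of all genes did. DESeq2's Wald test called 1 of the 7, *Fabp4* (adjusted p = 0.0134), and 0.324% of all genes, 0.266% upwards.

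The CS over CVS differences were 0.87 for *Retn* (95% interval 0.33 to 1.42), 0.80 for *Fabp4* (0.46 to 1.14), 0.75 for *Cidec* (0.29 to 1.21), 0.68 for *Cfd* (0.22 to 1.15) and 0.64 for *Adipoq* (0.30 to 0.99), each with an adjusted p of 0.638 (edgeR). *Tusc5* was at 0.40 (-0.016 to 0.81, adjusted p = 0.676) and *Plin1* at 0.27 (-0.11 to 0.64, adjusted p = 0.720), with intervals that included 0. With the replicate block 5 of the 7 were called, the same 5 as at the unadjusted p, where 6.07% of all genes were called and 3.76% upwards, and the adjusted p ran from 0.00525 to 0.378 (edgeR). With the code prefix as a block in all 7 libraries 0 were called, where 2.07% of all genes were, 1.22% upwards. Without CS 1, *Fabp4* alone of the 7 passed (adjusted p = 0.0590, edgeR). CS 1 over CVS 1, the only such pair within a code, gave log2 ratios of 0.23 (*Plin1*) to 0.76, with 7 of 7 higher.

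**Figure D2:**
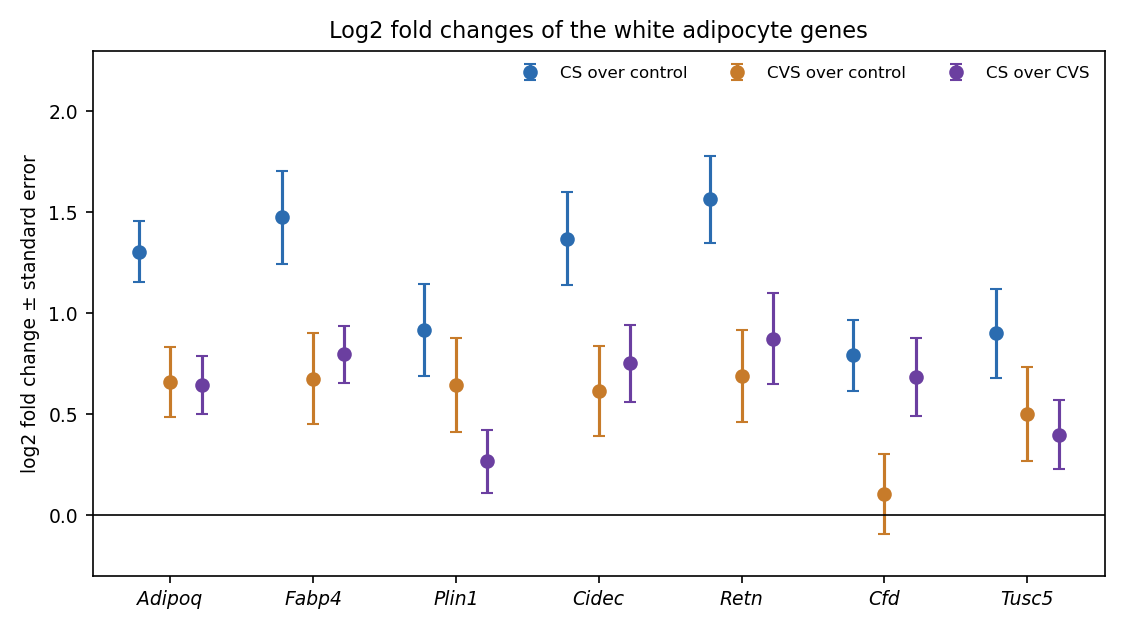
Log2 fold change of each gene with its standard error from edgeR's quasi-likelihood fits, for CS over control, CVS over control and CS over CVS; the line at 0 marks no difference. In CVS over control, 5 genes lie between 0.62 and 0.69, *Tusc5* at 0.50 and *Cfd* at 0.11. The CS over control values, 0.79 to 1.56, are those of the comparison that chose the genes.

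The genes differed in how far they stood from each other in the stressed libraries, which was described without a test. Each gene's log2 level was set against the mean of the 7 in the same library, with the control mean at 0. The values are thus shifts from each gene's own control level, not distances from the mean of the 7. *Cfd* was shifted down by similar amounts under both stresses, by -0.46 in CVS and -0.40 in CS, with a control SD of 0.23. *Plin1* (-0.26 in CS, control SD 0.14) and *Tusc5* (-0.27, SD 0.19) were also shifted down in CS, and stood at 0.099 and -0.039 in CVS. *Retn* (0.35, SD 0.20), *Fabp4* (0.30, SD 0.19) and *Cidec* (0.18, SD 0.077) were shifted up in CS. *Adipoq* was at 0.079 in CVS and 0.11 in CS (SD 0.057), in CS the smallest shift of the 7. The control libraries themselves differed, and control 2 was the lowest control library in 6 of 7 genes and control 3 the highest in 6 of 7, both together in 5 of 7, a pattern that 12.3% of all genes share. Across the 7 libraries, the 21 pairs of these genes had Pearson correlations of 0.684 to 0.992, with a median of 0.916. After the group means were taken out the median was 0.665 and the range 0.030 to 0.942. These are descriptions over 7 libraries that share their groups and codes.

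**Figure D3:**
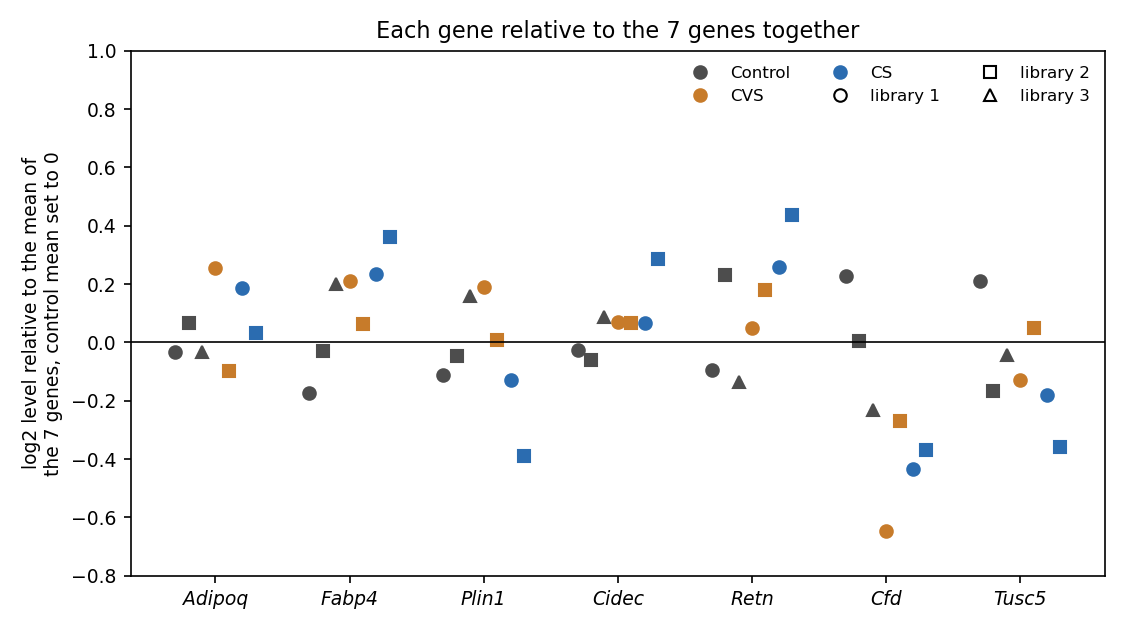
Log2 level of each gene relative to the mean of the 7 genes in the same library, with the mean of the 3 control libraries set to 0; each point is 1 library. *Cfd* lies at -0.65 and -0.27 in CVS and at -0.44 and -0.37 in CS, below its control mean in all 4 stressed libraries.

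Other genes of fat and lipid metabolism could be looked up only where the study's own tables of changed genes pair an Ensembl ID with a symbol, so the counts below are of genes picked on these same samples and are not independent evidence of a direction. Each such gene was thus listed by the study as changed in CS or CVS. Called and not called, here and for the cell types below, refer to edgeR's test only. Of 14 further white adipocyte markers 2 had an ID, and they went opposite ways. *Car3*, a carbonic anhydrase abundant in fat and muscle, had 36.1, 28.4 and 45.8 CPM in control, 73.6 and 68.0 CPM in CVS and 93.0 and 92.8 CPM in CS. It rose in CS (log2 fold change 1.34, adjusted p = 0.0328, edgeR) and was at 0.95 in CVS (adjusted p = 0.150). *Cd36*, a fatty acid and lipoprotein receptor that adipocytes share with endothelium and macrophages, had 63.0, 71.5 and 84.0 CPM in control, 27.99 and 25.7 CPM in CVS and 34.7 and 35.9 CPM in CS. It fell in CS (-1.04, adjusted p = 0.0319, edgeR) and in CVS (-1.44, adjusted p = 0.0176). Thus 1 of these markers followed the order found in 6 of the 7 genes, control below CVS below CS, and the other was lowest in CVS.

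Of the relatives of the 7 genes, 3 had an ID and 0 of these were called by edgeR's test, although the study lists all 3 as changed. *Plin5*, a perilipin of tissues that burn fatty acids, had log2 fold changes of -0.88 in CS (adjusted p = 0.0985, edgeR) and -0.58 in CVS (adjusted p = 0.594). *Fabp5*, which encodes another fatty acid carrier, was at 0.95 in CS (adjusted p = 0.299, edgeR) and -0.15 in CVS (adjusted p = 0.984). *C1qtnf1*, a paralog of adiponectin, was at -0.38 in CS (adjusted p = 0.195) and -0.29 in CVS (adjusted p = 0.589). Of 12 other secreted adipokines, 4 had an ID and 0 were called in either comparison with control, with *Rbp4* at 1.36 in CS and 0.35 in CVS and *Angptl4* at 0.51 and -0.41.

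In fatty acid and triglyceride synthesis and uptake, 9 of 19 genes had an ID. In CS, 6 of the 9 had a positive log2 fold change, 3 of the 9 were called higher and 1, *Cd36*, was called lower. In CVS 5 were positive, 0 were called higher and *Cd36* was called lower. Those called higher were *Thrsp*, a lipogenic nuclear protein (log2 fold change 2.57 in CS, adjusted p = 0.0311, edgeR), *Scd*, the desaturase that makes oleate (1.55, adjusted p = 0.0110), and *Dgat1*, which makes triglyceride (2.02, adjusted p = 0.0409). In CVS, *Thrsp* was at 1.84 (adjusted p = 0.0652, edgeR), *Scd* at 1.31 (adjusted p = 0.0736) and *Dgat1* at 0.025 (adjusted p = 0.998). The paper counts *Thrsp* and *Scd* among the genes changed in both protocols and treats both as upregulated. By qPCR of single animals it also reports both as changed in CVS. Others of the list that were not called lay in both directions. *Dgat2*, the other enzyme of that last step, was at -0.93 in CS (adjusted p = 0.116, edgeR) and -0.79 in CVS (adjusted p = 0.239), and *Gpd1*, which supplies glycerol phosphate, at -0.37 and -0.24. *Fasn*, the fatty acid synthase, was at 0.43 in CS and 0.33 in CVS, and *Acsl1*, which activates fatty acids, at 0.39 and 0.0996. The lipid droplet and lipolysis list had 2 of 15 genes with an ID, of which *Ldah*, a droplet hydrolase, rose in CS (1.37, adjusted p = 0.0328, edgeR) and was at 0.047 in CVS. Of 8 adipocyte transcription factors only *Klf15* had an ID (-0.56 in CS and -0.15 in CVS, not called).

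**Figure D4:**
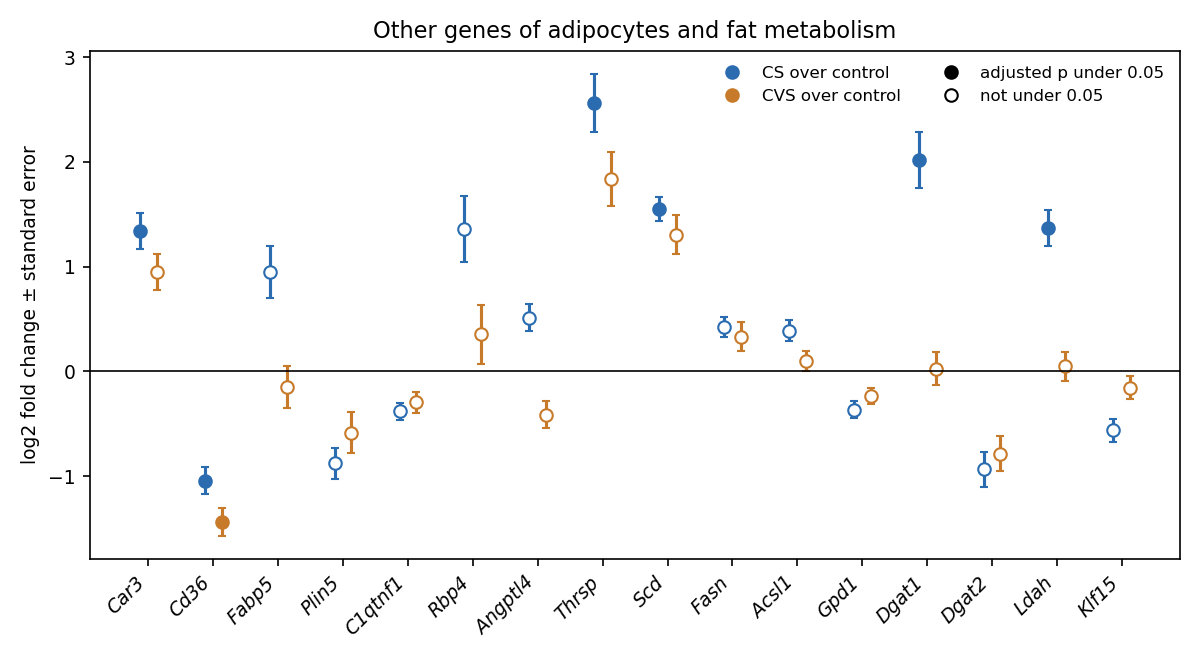
Log2 fold change with its standard error for other genes of fat and lipid metabolism, in CS over control and CVS over control. *Thrsp*, *Scd* and *Car3* are positive under both stresses, *Cd36* is negative under both, and *Dgat1* and *Ldah* are positive in CS and near 0 in CVS (0.025 and 0.047).

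Markers of other cell types that the dissected tissue could hold were sparse under the same limit. Of 11 brown adipocyte genes 2 had an ID: *Cox8b* was at -0.12 in CS and -0.93 in CVS, and *Cpt1b* at -0.14 and -0.77, with 0 called. The macrophage marker *Mrc1* (1 of 6 with an ID) was at 0.18 in CS and 0.48 in CVS, and the muscle gene *Myom2* (1 of 5) at -0.35 and -0.62. Of 9 medulla genes, *Chgb* was at 0.40 and -0.052, and the noradrenaline transporter *Slc6a2* at -0.44 in CS and -0.88 in CVS, where it fell (adjusted p = 0.0488, edgeR). Of 6 nerve and glia genes, 3 had an ID, and *Tubb3* fell in CVS (-0.78, adjusted p = 0.0278, edgeR) while *S100b* (0.76) and *Map2* (0.69) were not called there. The 3 of 12 cortex genes gave 0.37 in CS and 0.41 in CVS for *Cyp11b2*, 0.58 and 0.30 for *Scarb1*, and -0.36 and -0.72 for *Nr0b1*, with 0 called. The share of surrounding fat in each pool was not measured, and its part in the values of the 7 genes was not tested.

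Among the other 13885 genes tested, 82 (0.591%) correlated with the mean profile of the 7 genes over the 7 libraries with a Pearson r over 0.9, and 15 over 0.95. The 7 genes themselves lay at 0.882 to 0.995, but each is part of that mean, so these values are not comparable with those of the other genes. Of the 10 highest, 3 could be named. *Nptx2*, a secreted pentraxin of neurons, had r = 0.968, with 15.7, 16.3 and 20.7 CPM in control, 21.2 and 24.6 CPM in CVS and 28.9 and 30.7 CPM in CS. *Car3*, whose levels are given above, had r = 0.965. *Arhgap32* had r = 0.963, with 64.0, 58.3 and 74.5 CPM in control, 90.9 and 74.7 CPM in CVS and 121 and 145 CPM in CS. The gene with the highest r, ENSRNOG00000005772 (r = 0.986), moved over a narrow range, 3.08 to 3.89 CPM. These are likenesses over 7 libraries in 3 groups, so any gene ordered control, CVS, CS correlates strongly.

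**Figure D5:**
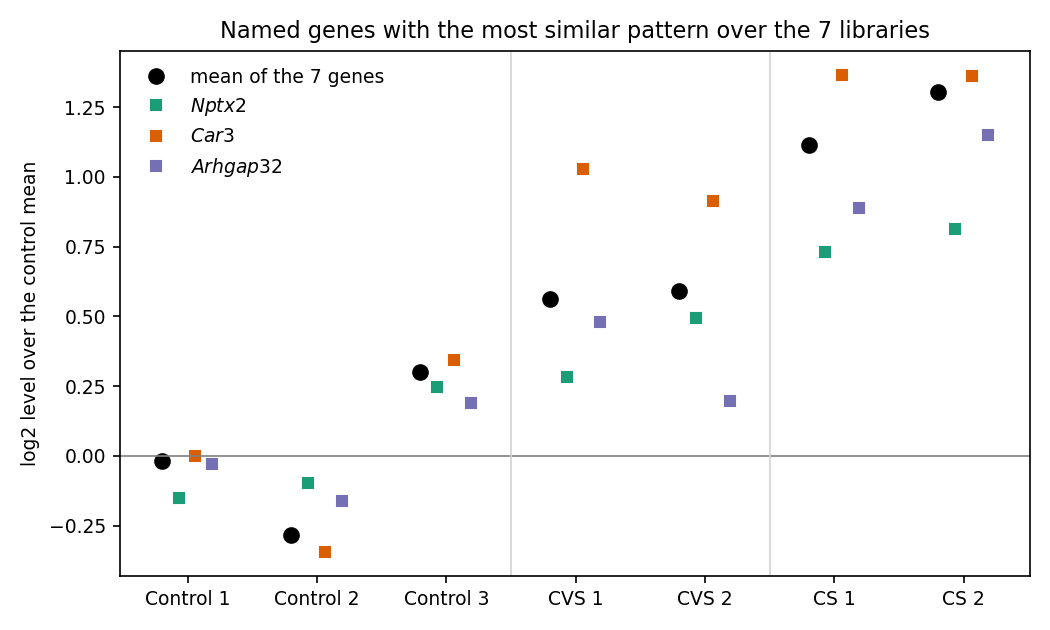
Log2 normalized CPM relative to the control mean in each library, for the mean of the 7 genes (black circles) and for the 3 named genes with the most similar profile (squares). For the mean and for each of the 3 genes, every CVS library lies above every control library and every CS library above every CVS library, from 28.4 CPM (control 2) to 93.0 CPM (CS 1) for *Car3*.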

How the data were processed

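Directional libraries of poly(A)-selected RNA were sequenced by the authors as 50 bp single reads. The submitters' processing notes name Rnor_6.0 and featureCounts for the counting per Ensembl gene. The deposited values are these raw counts for 3 control, 2 CVS and 2 CS libraries. The strand setting and annotation release are not given in the sources used here, so genes that overlap or have near-identical copies may mix reads. Total counts, 20095746 to 32242123 per library, set the precision, and 9704 of 32754 genes had 0 counts throughout.

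Gene symbols came only from the study's supplementary tables (276 IDs, all in the counts, 275 tested). Those tables also hold the authors' fold changes and p-values, which were not used. Other symbols were not looked up here.

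Genes were kept if no library had under 10 counts, and were tested with edgeR 4.0.16 (R 4.3.3, limma 3.58.1; TMM, estimateDisp, glmQLFit, glmQLFTest), on the libraries compared, with Benjamini-Hochberg adjustment over 13892 genes. Calls used an adjusted p under 0.05, or 0.1 for CS over CVS. Standard errors and 95% intervals came from the same fit. The main edgeR fit and the DESeq2 fit were run on simulated counts, to check the size of the fitted log2 fold changes. The blocked fits and the other alternatives were not simulated. Alternatives were DESeq2 1.42.0, its size factors used in edgeR, no filter, the legacy calculation off, a replicate block, a code prefix block, all 7 libraries in 1 fit and leaving out each library. For the 6 pairs of same-numbered libraries, the correlation across genes of their deviations from group means was 0.212 to 0.465. The pairs are mirror images in groups of 2. The numbers come from the labels, which do not say what they mark, and were taken to pair the libraries. For CS 2 this pairing differs from that of the codes, and pairs with unlike numbers were not checked. Python 3.11.15, pandas 2.3.3, numpy 2.4.6, scipy 1.17.1 and matplotlib 3.10.9 were used for tables and plots.

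The 7 genes and all lists were chosen with earlier results of these data known. The rule named the 7 genes, the 10 genes most like their mean profile where a symbol was known, and from the lists the called genes and relatives of the 7; further list genes were named where they had a symbol. The values of 1 list gene are not reported here.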

Additional observations from a re-analysis of the deposited data

How the results depend on the processing

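Over 12 alternatives in each comparison with control and 11 for CS over CVS, the log2 fold changes of the 7 genes kept their sign except that of *Cfd* in CVS, which was -0.023 without control 2 and -0.10 without CVS 2 (range when a library was left out, -0.10 to 0.30). The number of the 7 genes called in CS (2 of 7) was 7 with DESeq2, 7 without a filter, 6 with the replicate block and 7 with the code prefix block, and 0 to 4 when a library was left out. In CVS (0 of 7) it was 2 without a filter, 5 with the replicate block and 4 with the code prefix block, and 0 to 0 when a library was left out. In CS over CVS (0 of 7) it was 1 with DESeq2, 5 without a filter and 5 with the replicate block, and 0 to 1 when a library was left out. Over all genes, the 29 called in CS became 191 with DESeq2, 232 without a filter, 418 with the replicate block, 580 with the code prefix block and 1 to 83 when a library was left out (83 without CS 1). The 13 in CVS became 124, 151, 817 and 257 in the same order, 7 with DESeq2's size factors, 6 with the legacy calculation off, and 0 to 16 without a library. The 0 in CS over CVS became 45, 391, 843 and 287, and 0 to 86 without a library (86 without CS 1). Without a filter, 22388 genes were tested in CS, 22425 in CVS and 22070 in CS over CVS. Of these, 1.04%, 0.673% and 1.77% were called, in that order. With all 7 libraries in 1 fit, 3 of the 7 genes were called in CS (0.288% of all genes). In CVS and in CS over CVS that fit called 0 of the 7. The causes were not tested. With 1 library left in a group, that library was assumed to vary like the others. Of the single-gene tests in CVS over control, 71 kept their sign and their side of the threshold and 11 passed it. The other 2 changed sign and did not pass it. In CS over CVS 65 stayed and 12 passed. With 2 or 3 pools per group and 43 to 943 counts per gene and library, a difference that was not called is not shown to be absent. The intervals given are not detection limits, since some genes whose interval excluded 0 were not called.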
